A study of Mus musculus with 6 samples.

Results

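The glucocorticoid receptor gene Nr3c1 and 5 genes that the receptor induces, Fkbp5, Tsc22d3, Sgk1, Ddit4 and Klf9, were followed in mouse microglia with and without the microRNA gene Mir137. The 6 genes were chosen by symbol, as the receptor and well-known targets, from a table of 17459 genes. They and the gene lists below were chosen with earlier results of these data known. All 6 passed the filter on low counts, which kept 13490 genes for testing. RNA was sequenced from brain microglia of male C57BL/6J mice at 8 weeks of age, in 3 libraries of the conditional knockout (cKO, Mir137 loxP/loxP with Tmem119-CreERT2) and 3 of its control (cWT, Mir137+/+ with the same Tmem119-CreERT2). Mice of both genotypes thus carried the tamoxifen-inducible Cre recombinase, driven by the microglial gene Tmem119, and the labels describe injections of tamoxifen on 7 days in a row at 7 to 8 weeks of age. The labels name 4 mice in the isolation and 3 replicates per genotype, without tying mice to libraries, so p-values reflect the spread among these libraries alone, and that spread may be technical. No library of mice without Cre or tamoxifen, and no treatment with a glucocorticoid, is part of the design.

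Corticosterone, the main glucocorticoid of the mouse, crosses the cell membrane and binds the receptor, which HSP90 and its co-chaperones hold in the cytoplasm in a form ready for hormone. The bound receptor moves to the nucleus, where pairs of receptor molecules bind palindromic DNA and recruit coactivators, and where the receptor also restrains inflammatory genes driven by NF-kB and AP-1. Its induced targets include brakes on the hormone itself: FKBP51, the product of Fkbp5, lowers the affinity of the receptor for hormone. GILZ, the product of Tsc22d3, restrains NF-kB and AP-1, the kinase SGK1 acts on ion channels and FOXO factors, DDIT4 restrains the mTORC1 kinase, and KLF9 is a transcription factor. In microglia the receptor is known for damping the response to inflammatory stimuli. None of these targets answers to the receptor alone. Ddit4, for example, is also induced by hypoxia and by stress on energy or protein folding.

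Mature miR-137-3p is shown because its seed was searched for in the 3' UTRs of the members. The 5p arm was not searched. In RefSeq it lies on chromosome 3 at chr3:118433901-118433923 (GRCm38.p6, plus strand), and bases 2 to 8, the seed, are in capitals.
miR-137-3p: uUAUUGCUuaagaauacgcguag
The match to this seed in a 3' UTR is AGCAATA. It was found at 1 place in the annotated 3' UTR of the receptor transcript (3937 bases) and at no place in those of Fkbp5, Tsc22d3, Sgk1, Ddit4 and Klf9, which have 867 to 3222 bases. Of 12523 tested genes with an annotated 3' UTR, 9.53% held at least 1 such match. That share covers 3' UTRs of any length and was not matched to the long one of Nr3c1. The match in Nr3c1 was not followed by an A, as a longer form of the site would be. A match is a description of the letters and not evidence of pairing.

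Windows of 300 bases around annotated start sites (RefSeq, GRCm38.p6) were read for 5 of the members: 1 window each for Fkbp5, Ddit4 and Klf9, 3 for Tsc22d3 and 6 for Sgk1. Some of them are shown because 3 of these genes moved together in cKO and 2 did not. The motifs searched, on both strands, were the arm of the receptor's palindrome, spelled AGAACA, then its full palindrome, spelled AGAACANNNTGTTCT, then a looser palindrome that overlaps it, spelled GNACANNNTGTNC, and the AP-1 motif, spelled TGANTCA. Matches to the arm and to the palindromes are in capitals below. The Klf9 window and the other windows of Sgk1 and Tsc22d3 are not printed. The printed window of Sgk1 is the one with the full palindrome, and that of Tsc22d3 its only one with the arm.
Sgk1, start site 5, chr10:21993640-21993939, plus strand: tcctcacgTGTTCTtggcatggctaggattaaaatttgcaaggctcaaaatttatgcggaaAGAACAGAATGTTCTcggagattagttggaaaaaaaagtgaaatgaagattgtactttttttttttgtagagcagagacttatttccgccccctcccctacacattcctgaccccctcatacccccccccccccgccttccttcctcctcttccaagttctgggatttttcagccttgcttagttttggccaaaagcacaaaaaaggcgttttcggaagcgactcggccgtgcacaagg
Fkbp5, chr17:28486100-28486399, minus strand: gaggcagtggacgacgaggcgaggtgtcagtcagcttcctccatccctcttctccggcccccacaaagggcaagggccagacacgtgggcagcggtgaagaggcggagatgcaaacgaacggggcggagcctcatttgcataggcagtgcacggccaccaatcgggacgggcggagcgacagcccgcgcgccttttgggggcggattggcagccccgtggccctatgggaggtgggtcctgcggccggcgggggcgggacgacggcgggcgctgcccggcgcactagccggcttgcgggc
Ddit4, chr10:59951721-59952020, minus strand: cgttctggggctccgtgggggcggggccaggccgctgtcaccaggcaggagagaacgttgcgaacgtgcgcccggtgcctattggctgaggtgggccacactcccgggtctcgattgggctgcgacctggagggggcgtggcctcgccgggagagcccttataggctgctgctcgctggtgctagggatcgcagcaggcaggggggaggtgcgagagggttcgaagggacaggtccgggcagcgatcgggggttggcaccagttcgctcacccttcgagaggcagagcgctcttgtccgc
Tsc22d3, start site 1, chrX:140600473-140600772, minus strand: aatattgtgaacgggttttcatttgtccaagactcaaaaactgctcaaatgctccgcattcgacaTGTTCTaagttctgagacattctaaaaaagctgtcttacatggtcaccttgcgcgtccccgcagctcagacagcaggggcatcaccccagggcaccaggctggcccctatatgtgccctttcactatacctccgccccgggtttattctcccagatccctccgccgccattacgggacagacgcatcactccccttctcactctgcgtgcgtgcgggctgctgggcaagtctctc
The full palindrome stood in 1 of these windows, that of Sgk1, as AGAACAGAATGTTCT at chr10:21993701-21993715, with its first base 189 bases before the start site. Only 3 of 32851 promoter windows of the same length (0.00913%) held it, and 156 (0.475%) held the looser form. In the GENCODE models the palindrome overlapped no exon, lay within 5 of 13 Sgk1 transcripts and had 4 others starting within 1000 bases downstream. The arm alone was found in window 1 of Tsc22d3, and in windows 1, 4 and 5 of Sgk1. It was absent from the windows of Fkbp5, Ddit4 and Klf9, while 19% of all windows held it. The AP-1 motif was found in the Klf9 window only, and in 7.81% of all windows. Which start sites the microglia used was not measured, and a missing match says only that these letters are not in the window.

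The libraries held 12068703 to 17482042 estimated counts, fewer in each cKO library than in any cWT library. Libraries of the same genotype correlated at 0.980 to 0.991 in log2 CPM (Pearson, across genes, which are not independent replicates), and libraries of different genotypes at 0.874 to 0.888. Levels are in CPM, library-scaled counts after TMM, a scaling that sets the bulk of genes level between libraries. Of all genes tested, 72.1% were called at an edgeR adjusted p under 0.05, 35.6% higher and 36.5% lower in cKO, and for 74.6% the 3 cKO and 3 cWT libraries did not overlap. Shares of called genes among the members are therefore to be read against a background in which most genes were called. In the authors' deposited table the base mean of Mir137 was 0, so its level could not be compared between genotypes and the deletion was not checked here. Of 10 microglial markers 3 rose and 5 fell, and their summed level, 35340 to 37570 CPM in cWT and 32880 to 37090 CPM in cKO, overlapped between genotypes. Tmem119, the gene that drives the Cre, rose by 1.35 on the log2 scale.

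Nr3c1, which encodes the receptor, fell in cKO, 3 of its 5 targets rose, and 2 did not pass the test. The receptor gene (ENSMUSG00000024431, chromosome 18, 39410545 to 39519421, GRCm38, minus strand) stood at 291, 248 and 269 CPM in the cWT libraries. In the cKO libraries it stood at 112, 98.2 and 95.3 CPM. Every cKO library lay below every cWT library. The estimated counts behind these values were 4844 to 5474 in cWT and 1109 to 1255 in cKO. The mean went from 269 ± 21.6 to 102 ± 9.13 CPM (SD, n = 3 each), or 2.64-fold lower. Its log2 fold change was -1.40 (SE 0.10, edgeR adjusted p = 7.446e-10). Of all tested genes, 1510 had a lower log2 fold change. In bulk RNA such a difference cannot be divided between fewer cells that express the gene and less RNA per cell.

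Ddit4, the inhibitor of mTORC1 (ENSMUSG00000020108, chromosome 10, 59949669 to 59951834, minus strand), had the largest rise of the 6 genes on the TMM scale (with offsets for length and GC content, Fkbp5 stood higher, at 2.55 against 2.09). It stood at 93.8, 101 and 104 CPM in cWT and at 545, 618 and 571 CPM in cKO. The genotypes were far apart beside the spread within each. The log2 fold change was 2.54 (SE 0.10, edgeR adjusted p = 1.745e-12), or 5.81-fold, and 160 of the tested genes had a higher one.

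Fkbp5, whose product lowers the receptor's affinity for hormone (ENSMUSG00000024222, chromosome 17, 28399094 to 28517527, minus strand), stood at 109, 114 and 127 CPM in cWT. In cKO it stood at 493, 603 and 434 CPM. The cKO libraries varied more among themselves than the cWT libraries, and the lowest of them was still well above the highest cWT library. The mean rose from 117 ± 9.30 to 510.0 ± 85.6 CPM (SD, n = 3 each), or 4.37-fold. Its log2 fold change was 2.13 (SE 0.12, edgeR adjusted p = 3.847e-11).

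Tsc22d3, which encodes GILZ (ENSMUSG00000031431, chromosome X, 140539528 to 140600659, minus strand), was nearly level among the cWT libraries, at 243, 235 and 238 CPM. It stood at 624, 736 and 585 CPM in cKO, again without overlap. Its log2 fold change was 1.44 (SE 0.10, edgeR adjusted p = 8.519e-10), or 2.71-fold, and 1437 tested genes had a higher one.

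**Figure D1:**
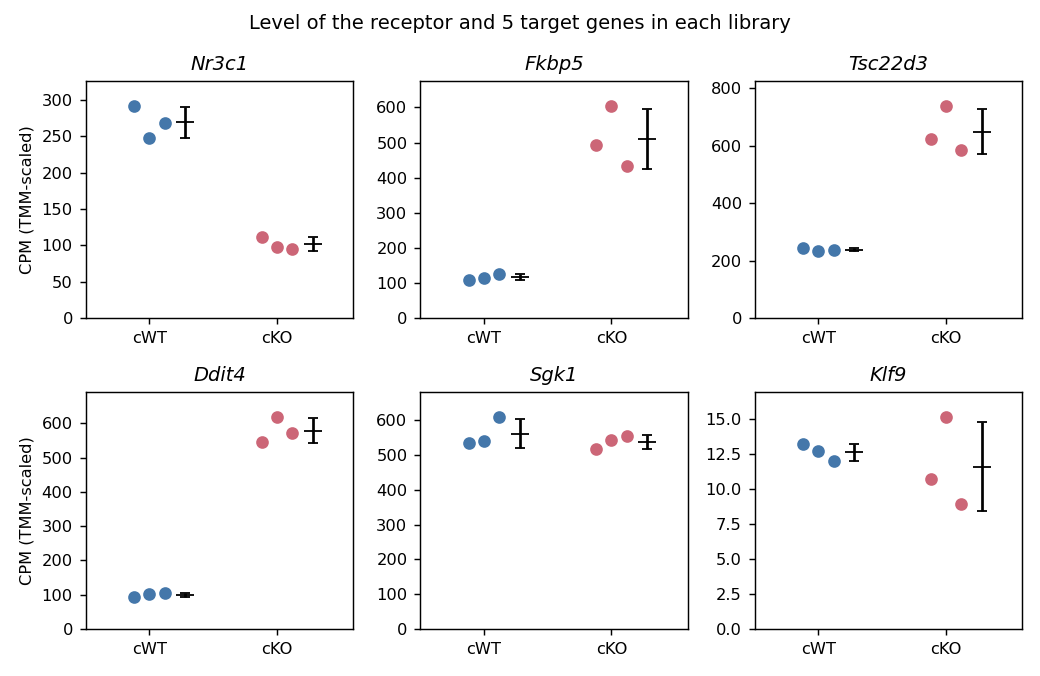
Level of each of the 6 genes in every library, in CPM on the TMM scale (vertical axes start at 0 and differ between panels). Points are libraries, and the bar beside each group is its mean ± SD (n = 3). Nr3c1 is lower in all 3 cKO libraries, Fkbp5, Tsc22d3 and Ddit4 are higher in all 3, and the genotypes overlap for Sgk1 and Klf9.

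Sgk1, the serum- and glucocorticoid-regulated kinase (ENSMUSG00000019970, chromosome 10, 21882184 to 21999903, plus strand), did not pass the test. It stood at 535, 540 and 609 CPM in cWT and at 517, 543 and 556 CPM in cKO. The genotypes overlapped. The log2 fold change was -0.06 (SE 0.10, edgeR adjusted p = 0.6025), with a 95% interval from -0.26 to 0.15, so a change as large as that of any of the 3 genes that rose lay outside the interval.

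Klf9, a transcription factor of the Krüppel-like family (ENSMUSG00000033863, chromosome 19, 23141226 to 23168134, plus strand), was the least abundant of the 6, with estimated counts of 237 to 248 in cWT and 110 to 171 in cKO. It stood at 13.2, 12.7 and 11.99 CPM in cWT and at 10.7, 15.1 and 8.96 CPM in cKO. The second cKO library lay above all cWT libraries and the other cKO libraries below them. The log2 fold change was -0.13 (SE 0.18, edgeR adjusted p = 0.5393, 95% interval -0.50 to 0.25), and without cKO replicate 3 it was 0.05. Thus 4 of the 6 genes were called, against 72.1% of all genes tested, and the 4 are also those whose libraries did not overlap, against 74.6% of all. The authors' deposited table has log2 fold changes of -1.40 for Nr3c1, 2.13 for Fkbp5, 1.45 for Tsc22d3, 2.54 for Ddit4, -0.05 for Sgk1 and -0.12 for Klf9.

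Per base of transcript, the order of the 6 genes differed between genotypes. In cWT, Sgk1 was the most abundant at 229 ± 16.98 CPM per kilobase (SD, n = 3), followed by Tsc22d3 at 121 ± 2.21, Ddit4 at 56.7 ± 2.96, Nr3c1 at 41.8 ± 3.36, Fkbp5 at 30.2 ± 2.41 and Klf9 at 2.81 ± 0.135, on the same scale. No neighbours in that order overlapped between libraries. In cKO, Ddit4 at 329 ± 21.1 and Tsc22d3 at 328 ± 39.9 CPM per kilobase led and overlapped each other. Sgk1 followed at 219 ± 8.19, Fkbp5 at 132 ± 22.2, Nr3c1 at 15.8 ± 1.42 and Klf9 at 2.59 ± 0.711, with no overlap between these. Fkbp5 and Nr3c1 had thus changed places. These levels use 1 annotated transcript per gene, which need not be the one expressed.

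Ratios of counts within a library do not depend on how libraries are scaled, but they do carry the length trend described next. Fkbp5 had 0.376 to 0.473 counts per count of Nr3c1 in cWT and 4.38 to 6.14 in cKO. For Ddit4 the ratio to the receptor went from between 0.322 and 0.406 to between 4.85 and 6.29. Tsc22d3 went from between 0.836 and 0.946 to between 5.55 and 7.50. For Sgk1 and Klf9 the ratios rose less, by 2.54-fold and 2.44-fold in the mean, beside 15.4-fold for Ddit4 and 11.5-fold for Fkbp5. Measured against Sgk1 instead of the receptor, Ddit4 went from between 0.171 and 0.187 to between 1.03 and 1.14, and Fkbp5 from between 0.204 and 0.210 to between 0.781 and 1.11. The 5 targets thus did not shift by a common factor.

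Fold changes in these libraries follow transcript length. Over 12983 tested genes the Spearman correlation between length and log2 fold change was -0.72 (across genes, which are not independent replicates). Within each library, log2 CPM also correlated with length, at 0.177 to 0.183 in cWT and at -0.163 to -0.140 in cKO (Spearman). The libraries thus differed in this trend by genotype, and the cause of that difference was not tested. The receptor transcript is long, at 6436 bases, and the 5 targets have 1755 bases (Ddit4), 1974 (Tsc22d3), 2456 (Sgk1), 3858 (Fkbp5) and 4486 (Klf9). Each gene is therefore set beside the tested genes of its own length, taken as 1 of 10 groups of equal size.

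Nr3c1, at -1.40, stood beside a median log2 fold change of -0.99 among 1298 genes of 4925 to 6453 bases, and 324 of these had a lower value. In that group 76.1% of genes were called lower and 7.01% higher, so a called fall was common at this length. The fall of Nr3c1 was 0.41 beyond that median. Fkbp5, at 2.13, stood beside a median of -0.40 among genes of 3509 to 4143 bases. In that group, where 51.2% of genes fell and 14.3% rose, 6 of 1298 genes had a higher log2 fold change than Fkbp5. Ddit4 and Tsc22d3 share a group, of 1697 to 2108 bases, with a median of 0.62 and with 65.8% of genes higher. In it 12 genes had a higher value than Ddit4 and 118 a higher value than Tsc22d3. Sgk1 lay 0.34 below the median of its group (0.28) and Klf9 0.56 above the median of its own (-0.68).

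**Figure D2:**
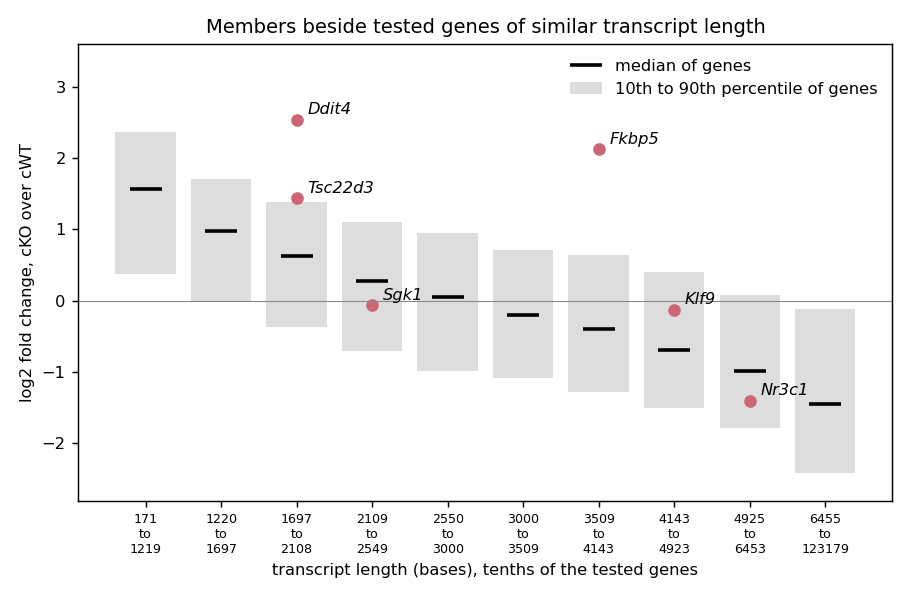
Log2 fold change of the 6 genes (red points, vertical axis) against transcript length in bases, in 10 groups of equal size of the tested genes (horizontal axis). Grey bars run from the 10th to the 90th percentile of the genes in a group and black lines mark the median. Fkbp5, Ddit4 and Tsc22d3 lie above the grey bars of their groups, while Nr3c1, Sgk1 and Klf9 lie within them.

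When length and GC content of the transcripts were taken up as offsets, fitted per library, calls were made for 57.2% of 12983 genes (29.5% higher, 27.7% lower in cKO), with all 6 members among them. Nr3c1 was still lower, at -0.47 on the log2 scale (SE 0.08, edgeR adjusted p = 1.562e-05). Fkbp5 rose by 2.55 (SE 0.10, edgeR adjusted p = 2.011e-14), Ddit4 by 2.09 and Tsc22d3 by 0.85. Sgk1 fell by 0.34 (adjusted p = 0.000806) and Klf9 rose by 0.43 (adjusted p = 0.02186), where neither was called without offsets and Klf9 had the opposite sign. Scaling by total count alone moved the median of all genes from -0.02 to -0.42 and the share of increases among all calls from 49.4% to 33.1%. On that scale Sgk1 and Klf9 were called lower, at -0.45 and -0.52, close to the median of all genes. The direction of Nr3c1, Fkbp5, Tsc22d3 and Ddit4 was the same under each of the 16 alternatives run. The calls of Sgk1 and Klf9, and the direction of Klf9, depend on the scale.

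**Figure D3:**
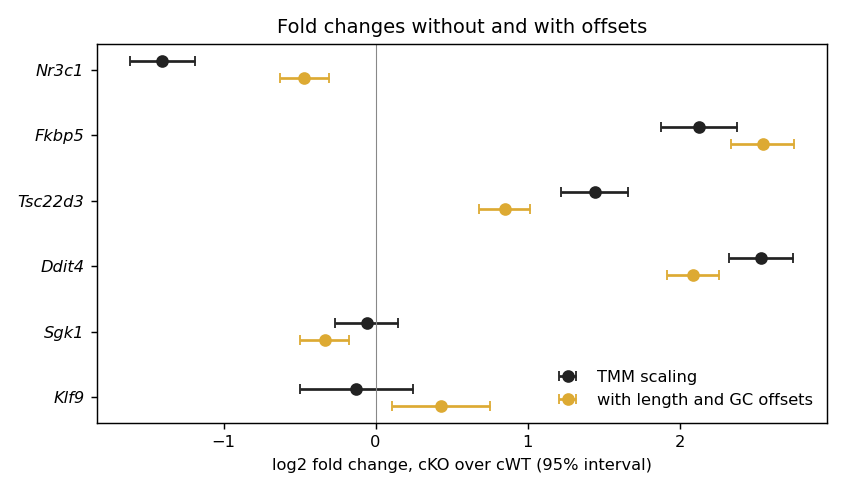
Log2 fold changes of the 6 genes, cKO over cWT (horizontal axis), with TMM scaling (black) and with the length and GC offsets (yellow). Points are estimates and bars 95% intervals. Nr3c1 moves from -1.40 to -0.47, Fkbp5 from 2.13 to 2.55, and Klf9 crosses 0.

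Among 24 other genes that glucocorticoids are known to induce, 15 rose and 3 fell, with a median log2 fold change of 0.69 beside -0.02 over all genes. That is 75% called, beside 72.1% of all genes. Il1r2, a decoy receptor for interleukin-1, rose by 2.71 (SE 0.18, edgeR adjusted p = 2.725e-10), from 8.01 ± 0.707 to 52.7 ± 15.5 CPM. Mt1, a metallothionein, rose by 1.96 and Cebpd, a transcription factor of the C/EBP family, by 1.61. Named after their values were seen, Zbtb16, a zinc finger factor often used as a marker of glucocorticoid exposure, rose from 1.80 ± 0.936 to 9.04 ± 0.495 CPM (log2 fold change 2.32), and Klf15 from 2.38 ± 0.285 to 8.63 ± 2.28 CPM (1.86). Of these, Zbtb16 has a long transcript (5114 bases) and stood at 3.24 with the offsets, Cebpd at 1.99, Klf15 at 1.83, Il1r2 at 1.65 and Mt1 at 0.42. The exceptions, also named after seeing their values, were the phagocytic receptor gene Mertk, which fell by 1.15, the repressor gene Bcl6, which fell by 1.37, and the Wnt receptor gene Fzd8, which fell by 0.58 (with the offsets its sign turned, to 0.50 higher, not called), beside the clock gene Per1, not called at -0.22 (adjusted p = 0.05743). With the offsets 15 of the 24 rose and 3 fell, with a median of 0.47, beside 29.5% higher and 27.7% lower among all genes. Per1 was then among the genes that rose, at 0.79. With total count scaling 11 rose and 7 fell, beside 3331 higher and 6742 lower of all 13490 genes.

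Inflammatory genes that the receptor is known to hold down did not move in 1 direction. Of 18, 16 were tested, 7 rose and 3 fell, with a median of 0.16. That is 62.5% called, beside 72.1% of all genes. Cxcl2, a chemokine for neutrophils, went from 10.7 ± 0.323 to 65.4 ± 4.76 CPM (log2 fold change 2.61, SE 0.11, edgeR adjusted p = 3.812e-12). The cytokine gene Il1b rose by 1.45 and the chemokine gene Ccl4 by 1.39. The median transcript of the list has 1248.5 bases. Under the offsets 2 rose and 8 fell, with a median of -0.61, beside 29.5% higher and 27.7% lower among all genes. Cxcl2 then stood at 1.15 and Il1b at 0.28, while Ccl4 was not called. With total count scaling 5 rose and 6 fell, beside 3331 higher and 6742 lower of all 13490 genes.

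The chaperones that hold the receptor ready for hormone were higher in most cases. Of 16, 12 rose and 1 fell (median 0.73), which is 81.2% called beside 72.1% of all genes, where 35.6% rose. With the offsets 10 rose and 1 fell (median 0.30), beside 29.5% of all genes higher. Bag1, a co-chaperone of HSP70, rose by 1.17, and the J-domain proteins Dnajb1 and Dnaja1 by 1.18 and 0.9986. With the offsets Bag1 was not called (-0.06), while Dnajb1 and Dnaja1 stood at 1.30 and 1.73. Fkbp4, which encodes FKBP52, the relative of FKBP51 that favours hormone binding, went from 81.8 ± 1.51 to 151 ± 10.6 CPM (log2 fold change 0.88, SE 0.09, edgeR adjusted p = 1.042e-07), and stood at 0.72 with the offsets. Its rise was smaller than that of Fkbp5, by 2.13 against 0.88 without offsets and 2.55 against 0.72 with them, a difference that was not itself tested.

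Coregulators of the receptor were mostly lower. Of 20, 16 fell and 3 rose (median -1.59), in a list with a median transcript of 6153.5 bases. That is 95% called, beside 72.1% of all genes, where 36.5% fell. Among all tested genes of 4925 to 6453 bases 76.1% fell. The acetyltransferase gene Ep300 fell by 2.42 and the coactivator gene Ncoa3 by 2.01. With the offsets 14 fell and 3 rose (median -0.55), beside 27.7% lower and 29.5% higher among all genes. Ep300 and Ncoa3 then stood at -0.88 and -0.70. Of 12 genes of hormone supply and related steroid receptors, 7 were tested, 5 fell and 1 rose (median -1.08). That is 85.7% called, beside 72.1% of all genes, in a list with a median transcript of 4571 bases. Among all tested genes of 4143 to 4923 bases 66.2% fell. With the offsets 5 fell and 0 rose (median -0.36), beside 27.7% of all genes lower. Hsd11b1, the enzyme that regenerates corticosterone and the 1 gene that rose (0.56), was then called lower, at -0.36; it was named after its values were seen. Nr3c2, the mineralocorticoid receptor, which also binds corticosterone, was low and fell from 8.55 ± 0.487 to 3.08 ± 0.0513 CPM (log2 fold change -1.47, SE 0.20, edgeR adjusted p = 3.929e-06), and stood at -0.51 with the offsets. The efflux pump gene Abcb1a fell by 1.11 and H6pd, which supplies cofactor to that enzyme, by 1.23. With the offsets they stood at -0.43 and -0.38.

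Among close relatives of the 5 targets, 5 of 18 tested genes rose and 11 fell (median -0.55), which is 88.9% called beside 72.1% of all genes. With the offsets 5 rose and 9 fell (median -0.10), beside 29.5% higher and 27.7% lower among all genes. Klf3 and Klf7, members of the family of Klf9, fell by 1.96 and 2.37, and by 1.21 and 1.16 with the offsets. Of 15 partners of SGK1 and DDIT4, 10 fell and 3 rose (median -0.9959). That is 86.7% called, beside 72.1% of all genes, where 36.5% fell. The median transcript of the list has 6018 bases, and among all tested genes of 4925 to 6453 bases 76.1% fell. Under the offsets 7 fell and 3 rose (median -0.11), beside 27.7% lower and 29.5% higher among all genes. Total count scaling gave 12 lower and 1 higher, beside 6742 lower and 3331 higher of all 13490 genes. Tsc2, through which DDIT4 acts on mTORC1, fell by 1.55, and Rictor, part of the complex that activates SGK1, by 1.78. They stood at -0.36 and -0.47 with the offsets. Mtor, the kinase itself, fell by 1.57 and was not called with the offsets (-0.01).

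**Figure D4:**
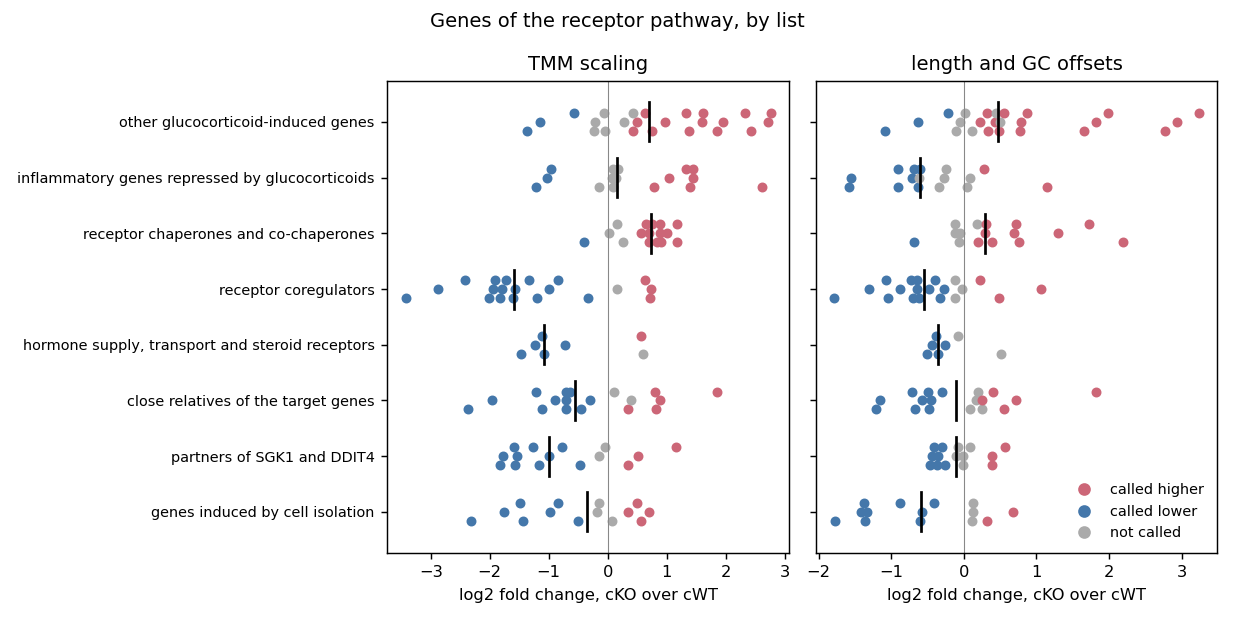
Log2 fold changes, cKO over cWT (horizontal axes), of the tested genes of 8 lists. The lists cover the receptor pathway, except for that of genes induced by cell isolation. TMM scaling is on the left and offsets for length and GC content are on the right. Each point is a gene, coloured by its call, and black bars are list medians. The glucocorticoid-induced list has medians of 0.69 and 0.47, and the inflammatory list moves from 0.16 to -0.61.

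Several of these genes are also expressed by other cells of the brain or respond to cell isolation, and the markers of those cells were measured alongside. Of 5 neutrophil markers measured, 4 rose, and their summed level was 3707 to 4342 CPM in cWT and 10960 to 15530 CPM in cKO. S100a8, S100a9, Retnlg and Camp rose by 2.05, 2.01, 2.23 and 0.99, and Ngp was not called (-0.04). With the offsets S100a8 and S100a9 were not called, Retnlg was higher (0.36), and Camp (-0.53) and Ngp (-1.25) were lower. Endothelial markers summed to 1151 to 1405 CPM in cWT and 1831 to 2236 CPM in cKO, with 3 of 6 higher and 2 lower. Monocyte markers summed to 866 to 980 and 1085 to 1393 CPM, with 3 of 6 higher and 2 lower. Of all genes 35.6% were called higher and 36.5% lower. With the offsets, among endothelial markers Ly6c1 was higher (0.39), Flt1 lower (-0.95) and Cldn5, Itm2a, Pecam1 and Slco1a4 not called. Among monocyte markers Ly6c2 (-0.21), Ccr2 (-0.77), Vcan (-0.73) and Fn1 (-0.57) were then lower, and Plac8 and Chil3 not called. Oligodendrocyte markers summed to 197 to 203 CPM in cWT and 191 to 328 CPM in cKO, astrocyte markers to 386 to 399 and 401 to 634 CPM, with 4 and 2 of 6 higher and 1 and 0 lower. Of 6 markers of border-associated macrophages 4 rose and 1, Mrc1, the most abundant, fell (median 0.86), while their sum overlapped between genotypes, at 629 to 791 and 615 to 744 CPM. Under the offsets Lyve1 (0.86) and Cd163 (0.48) were higher, Pf4 (-0.55) and Ms4a7 (-0.49) lower, and Mrc1 and Cbr2 not called. Neuronal markers summed to 12.9 to 16.1 and 16.02 to 20.9 CPM, with 1 of 2 tested higher and 0 lower. Lymphocyte markers summed to 4.501 to 7.02 and 6.07 to 7.59 CPM, and the tested Cd3d (0.52) and Nkg7 (0.16) did not pass edgeR's test. None of the markers in the table was at 0 in all libraries. Of 14 genes induced when tissue is dissociated, 7 fell and 4 rose (median -0.35), which is 78.6% called beside 72.1% of all genes. With the offsets 9 fell and 2 rose (median -0.59), beside 27.7% lower and 29.5% higher among all genes. With total count scaling 10 fell and 1 rose, beside 6742 lower and 3331 higher of all 13490 genes. Fosb fell by 2.32, Egr1 by 1.75 and Zfp36 by 1.49, and they stood at -1.77, -0.88 and -1.41 with the offsets. The part of these cells and of isolation in the values of the 6 genes was not tested.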

How the data were processed

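RNA sequencing was done on 6 libraries, 3 cKO and 3 cWT, grouped by sample title. The authors deposited estimated counts per gene symbol, not scaled between libraries; between 5.5% and 5.85% of each library's values had decimals and were rounded. A second deposited table holds the authors' comparison, with a base mean (a signal averaged over libraries after scaling), log2 fold changes, a Wald score, p-values and adjusted p-values, per the file headers. The submitters' processing notes name STAR 2.7.9a, RSEM, DESeq2, GRCm38 and mm10, without a role or order. The annotation and strand setting were not given in the sources used here. Reads of overlapping genes therefore cannot be assigned by strand.

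The quasi-likelihood test of edgeR 4.0.16 (R 4.3.3; TMM, robust, two-sided, genotype as the only term, filterByExpr with a minimum count of 10) was fitted to all genes, with Benjamini-Hochberg adjustment over the 13490 tested and calls at 0.05. Standard errors were derived from the test statistic, and 95% intervals from them. Libraries of the same genotype varied beyond counting noise (chi-square per degree of freedom 3.82 to 18.6). Lengths, GC content and 3' UTRs came from GENCODE M21 (GRCm38), 1 transcript per symbol, for 96.2% of tested genes; offsets were per-library splines with 5 degrees of freedom for each covariate. Promoter and microRNA sequences came from RefSeq (GRCm38.p6), and not all members had a window. The fits were tested on simulated data in which few genes changed, without a trend by length. That setting differs from these libraries, so it cannot show how the fits do under the length trend. Alternatives were DESeq2 1.42.0, voom of limma 3.58.1, other scalings and filters, the offsets, a replicate block and leaving out each library.

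The members and lists were chosen with earlier results of these data known. The named genes are the members, the 3 smallest p of each list and, for each member, the 2 genes of highest correlation; others are marked, and some genes that this rule names are not reported here.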

Additional observations from a re-analysis of the deposited data

How the results depend on the processing

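Under all 16 alternatives Nr3c1 remained called lower (log2 fold changes from -1.80 to -0.47) and Fkbp5 (1.74 to 2.55), Tsc22d3 (0.84 to 1.52) and Ddit4 (2.08 to 2.57) called higher, edgeR, DESeq2 and limma-voom included. Sgk1 was called with total count scaling (-0.45), with the offsets (-0.34) and with offsets plus the replicate block (-0.33). Klf9 was called with the same settings, at -0.52, 0.43 and 0.42. When each library was left out in turn, Sgk1 ranged from -0.10 to -0.002 and Klf9 from -0.35 to 0.0523, and the genes called from 9116 to 9717. The number of members called was 4, or 6 with total count scaling and with the offsets. Counts of called genes in all lists stayed within 1.5 times.

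With the offsets, and with offsets plus the replicate block, these named genes changed sign: Ccl4 (-0.34 and -0.37), Bag1 (-0.0641 and -0.06453), Tacc2 (1.53 and 1.53), Aars2 (0.41 and 0.42) and Rassf3 (0.21 and 0.20). Of genes named after their values were seen, Fzd8 (0.50, not called), Per1 (0.79, called) and Hsd11b1 (-0.36, called) also changed sign with the offsets. Leaving out 1 library turned the sign of Tacc2 (-0.14 to 0.004195), Aars2 (-0.23 to 0.06067) and Rassf3 (-0.18 to 0.02732), none of which was called with all libraries. The cause was not tested.

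Same-numbered libraries had correlations of their deviations of 0.0985, 0.0335 and 0.0882, so the numbers were not taken to pair them, although each library correlated best with its own number. With the replicate block, 9911 genes were called in place of 9729, and no call of a member changed. Depth limits Klf9 most, with 110 to 248 counts per library.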

Other observations

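For each of the 6 genes, the genes with the most similar log2 CPM over the 6 libraries are given as a description, among 10536 candidates. For Nr3c1 they were Purb and Tcf4 (Pearson r 0.99967 and 0.99965), for Fkbp5 Gemin7 and Ch25h (0.99886 and 0.99831), for Tsc22d3 Hemk1 and Serpinb6a (0.99959 and 0.99921) and for Ddit4 Xaf1 and Dpcd (0.99953 and 0.99945). The points share the difference between genotypes and the libraries' depth, and 3181 to 3332 candidates had r above 0.9 with each of these 4 genes. Sgk1 had only 10 such candidates, led by Tacc2 and Aars2 (0.96158 and 0.9584), and Klf9 had 18, led by Rassf3 (0.9954).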
